A study of Mus musculus with 16 samples.

Results

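Metformin was given to mice on each of 2 diets, and the effect described here is the one that the diets shared. It was read from 8 mammary gland RNA libraries of metformin mice and 8 of untreated mice, which together are all 16 libraries of the series. The inguinal glands were labelled postnatal day 16, and the series title places them in mid-lactation. The 4 groups of 4 libraries were metformin on the diet labelled NCD (NCD metformin), untreated NCD (NCD control), metformin on the high fat diet (HFD metformin) and untreated HFD (HFD control). The labels do not spell out NCD, do not say whether day 16 counts the age of an animal or the days since birth of a litter, and give no dose, route or duration of metformin. They also do not say that each library came from its own animal, so p-values measure the spread between these libraries. A gene was counted as moving alike when it passed 4 conditions: adjusted p under 0.05 for metformin with diet as a term, the same sign in both diets, unadjusted p under 0.05 in each diet, and no call for a difference between diets. Of 12506 genes tested, 675 moved alike, 415 (3.32%) of them higher and 260 (2.08%) lower in metformin glands.

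Metformin is a biguanide that accumulates in mitochondria and inhibits respiratory complex I, and the resulting fall in cellular energy activates AMP-activated protein kinase (AMPK). In the liver it lowers glucose output, and in tumour cells it slows growth. The lactating mammary gland is one of the most biosynthetically active tissues known: its luminal cells make milk protein, lactose and triglyceride, and much of their energy comes from mitochondrial respiration. The p53 protein, a transcription factor switched on by DNA damage and other stress, drives genes that halt the cell cycle or start cell death.

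Total estimated counts ran between 8649316 and 39156617 per library with a median of 28944266. A count of 3, taken as the limit of detection, corresponded to 0.0766 to 0.347 CPM, the unit of level used here, which is the count as a share of the library total after TMM scaling in edgeR. HFD control 4 and HFD metformin 1 were the shallowest libraries at 8649316 and 14508606 counts. Milk protein genes took 70.7 ± 0.21% of counts in NCD metformin and 71.1 ± 1.19% in NCD control (SD, n = 4 each). On the other diet they took 73.6 ± 1.98% in HFD metformin and 73.7 ± 1.02% in HFD control. The difference of -0.217 percentage points, metformin minus control, had p = 0.74 in an exact permutation test within diets (two-sided), and it was 0.0778 points without HFD metformin 4 (exact permutation p = 0.906). Such levels of milk transcripts are those of a lactating gland. One library, NCD control 3, held 4870 CPM of skeletal muscle marker genes, against at most 184 CPM in any other, and results that involve muscle genes are given with and without it.

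With diet as a term, the quasi-likelihood test of edgeR called 1284 of 12506 genes, 10.3%, at an adjusted p (Benjamini-Hochberg, two-sided) under 0.05. Of these, 698 (5.58%) were higher and 586 (4.69%) lower in metformin glands. When libraries were scaled by size only, the split turned to 348 higher and 825 lower, with the median over all genes at -0.075 rather than -0.008 on the log2 scale. Tested within NCD, 1255 genes (10%) were called, 501 (4.01%) higher and 754 (6.03%) lower. That split was 607 higher and 451 lower with a smooth trend in coding length and GC content removed, and 370 and 418 without NCD control 3. Within HFD 21 genes (0.168%) were called, 16 (0.128%) higher and 5 (0.0400%) lower, although 1599 genes (12.8%) had an unadjusted p under 0.05 there. The rule for moving alike took 5.40% of the tested genes, and the unadjusted p within each diet is part of that rule and no separate evidence. Size scaling alone gave 211 higher and 394 lower of 605 by the same rule.

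The diets shared no library, so each gives its own view of the drug. Over all 12506 genes the log2 fold changes on NCD and HFD had the same sign for 64.9% of genes, with Pearson's r = 0.181 and Spearman's rho = 0.352 across genes, which are not independent replicates. Of the 501 genes called higher on NCD, 446 (89.0%) were also above 0 on HFD, with a median log2 fold change of 0.517 on NCD and 0.233 on HFD. Of the 754 called lower on NCD, 587 (77.9%) were also below 0 on HFD, with medians of -0.781 and -0.163 in the same order of diets. The genes called on NCD thus had smaller median changes on HFD, but they were chosen on NCD. No gene was called for a difference between the diets by edgeR (lowest adjusted p 0.180), while 1243 (9.94%) had an unadjusted p under 0.05 and DESeq2 called 22. Of the 675 genes moving alike, 430 had the larger change on NCD.

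**Figure D1:**
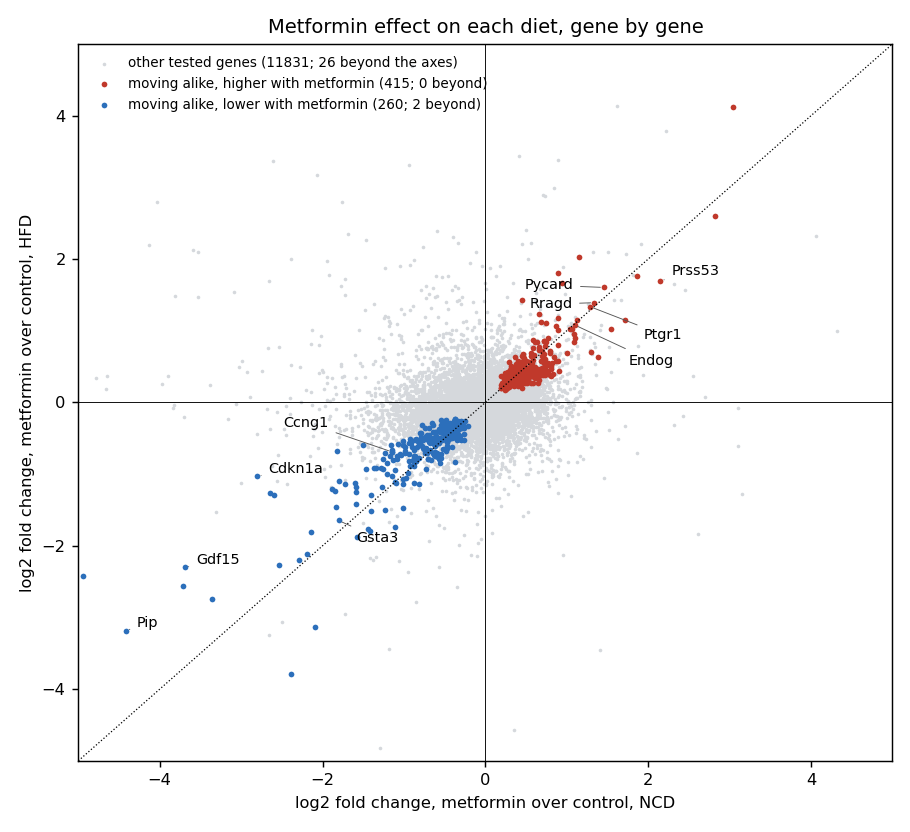
Each point is one tested gene, with the log2 fold change of metformin over control on NCD on the x axis and on HFD on the y axis; coloured points are the 415 higher and 260 lower genes moving alike. The genes moving alike fill the upper right and lower left corners by construction, and the cloud of other genes is wider along the NCD axis than along the HFD axis.

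The sizes were modest. The median log2 fold change with diet as a term was 0.408 for the 415 higher genes and -0.611 for the 260 lower ones, and 21 higher and 52 lower genes reached 1 on the log2 scale. In 241 of the 675 genes the libraries of metformin and control glands did not overlap within either diet, and in 131 all 8 metformin libraries lay outside the range of all 8 controls. Among all tested genes, 262 (2.09%) did not overlap within either diet and went the same way in both, 172 (1.38%) higher and 90 (0.720%) lower. Another 5 (0.0400%) did not overlap within either diet and went opposite ways. All 8 metformin libraries lay outside the range of the 8 controls in 138 genes (1.10%), 98 (0.784%) higher and 40 (0.320%) lower. At the edge of the adjusted p, Smurf1, a ubiquitin ligase, was just inside at -0.50 on the log2 scale and Slc7a4, a member of the cationic amino acid transporter family, at 0.32. Vtn, the adhesion protein vitronectin, at 0.77 and Chm, a Rab escort protein, at -0.88 were just outside. Of 27 alternative settings, 16 ended the call of Smurf1 and 18 that of Slc7a4.

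In the fit to all 16 libraries, 16 genes had an adjusted p under 0.05 in the contrast of each diet. They were Prss53, Ptgr1, mt-Co1, Pycard, Endog, Bdh1, Galk2, Idh2, Clybl, Tspan8, Slc25a5, Ndufs7 and Txn2, all higher, and Ccng1, Trpm2 and Dglucy, all lower. The 8 HFD libraries fitted alone gave 0 calls on HFD. Several products of these 16 genes work in mitochondria by textbook knowledge. They include the cytochrome oxidase subunit mt-Co1, the complex I subunit Ndufs7, the isocitrate dehydrogenase Idh2, the adenine nucleotide carrier Slc25a5, the ketone body enzyme Bdh1, the thioredoxin Txn2 and the nuclease Endog.

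Prss53, a trypsin-family serine protease gene, had the lowest p of all genes and, of the genes moving alike with a mean of 1 CPM or more, the largest rise. On NCD it stood at 12.3, 13.5, 13.7 and 13.8 CPM in NCD metformin, against 2.68, 2.96, 2.95 and 3.4 CPM in NCD control. On HFD it stood at 9.15, 13.2, 10.2 and 6.69 CPM in HFD metformin, against 3.08, 3.75, 3.19 and 1.67 CPM in HFD control. All 8 metformin libraries lay above all 8 controls (log2 fold change 1.93 ± 0.15 (SE), adjusted p = 3.2e-06). The log2 estimates were 2.15 on NCD and 1.7 on HFD, and the test of their difference gave an adjusted p of 0.604.

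Pycard encodes the inflammasome adaptor ASC and lies on the same stretch of chromosome 7 (127989708 to 127993867, minus strand, GRCm38.p6), as does Prss53 (127885841 to 127890970, minus strand). On NCD Pycard stood at 13.6, 18.5, 10.3 and 18.2 CPM in NCD metformin, against 4.59, 7.42, 5.21 and 4.92 CPM in NCD control. Its HFD values were 10.2, 12.6, 15.6 and 8.72 CPM in HFD metformin, against 4.37, 4.5, 3.92 and 2.23 CPM in HFD control. Again the 8 metformin libraries lay above all 8 controls (log2 fold change 1.53 ± 0.16 (SE), adjusted p = 9.94e-05), with log2 estimates of 1.46 on NCD and 1.6 on HFD.

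The genes around Prss53 and Pycard did not move as a block. Of 18 tested genes in this neighbourhood 5 were higher and 2 lower, against 5.58% and 4.69% of all genes. Hsd3b7, a bile acid synthesis enzyme, rose by 0.51 on the log2 scale and Kat8, a histone acetyltransferase, by 0.35, both alike in the 2 diets, and Bckdk, the kinase of branched-chain ketoacid dehydrogenase, by 0.29. Kat8 lost its call (adjusted p = 0.0613) when NCD control 3, HFD control 4 and HFD metformin 1 were left out together. Zfp646, whose annotated end overlaps the end of Prss53 on the opposite strand (127876221 to 127885996, plus strand), was lower at a log2 fold change of -0.39, and the integrin gene Itgax was lower at -0.36. These lower calls did not hold in most fits that left out 1 library: of the 16 such fits, 13 gave 1 or 0 lower genes in the neighbourhood. Whether the counting was strand specific is not given in the sources used here, so reads in the overlap cannot be assigned to Prss53 or Zfp646. Between the pair, Vkorc1 of the vitamin K cycle had a log2 fold change of 0.08 with an adjusted p of 0.687 by edgeR.

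The promoters of Prss53 and Pycard are shown because these neighbours led the shared response. Each is the RefSeq window (GRCm38.p6) covering 250 bases before and 50 bases after the annotated start. It was searched on both strands for an E-box (CACGTG), a cyclic AMP element (TGACGTCA), an antioxidant response element (TGACNNNGC), an ATF4 composite element (TGATGNAA), an estrogen-related receptor (ERR) element (TNAAGGTCA), a CCAAT box (CCAAT), a GC box (GGGCGG) and the p53 response element. Capitals mark the matches. Prss53, chr7:127890921-127891220, minus strand, holds a CCAAT box at base -158 and no other of these motifs.
Prss53: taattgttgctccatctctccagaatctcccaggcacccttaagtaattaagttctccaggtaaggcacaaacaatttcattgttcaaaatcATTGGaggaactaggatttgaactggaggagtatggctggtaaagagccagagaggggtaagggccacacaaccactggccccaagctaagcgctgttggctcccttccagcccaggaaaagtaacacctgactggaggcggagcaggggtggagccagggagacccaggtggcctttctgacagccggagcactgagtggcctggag
Pycard, chr7:127993818-127994117, minus strand, holds a GC box at base 27, and neither motif occurs in the other promoter.
Pycard: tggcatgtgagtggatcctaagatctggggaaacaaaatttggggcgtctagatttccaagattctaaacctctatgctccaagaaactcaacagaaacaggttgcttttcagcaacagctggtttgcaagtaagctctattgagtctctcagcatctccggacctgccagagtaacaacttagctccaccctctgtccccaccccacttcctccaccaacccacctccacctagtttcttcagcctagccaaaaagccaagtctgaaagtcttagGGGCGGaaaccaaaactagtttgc
The CCAAT box was found in 37.0% of the 327 promoters of higher genes moving alike, in 36.7% of the 210 of lower ones and in 38.4% of the 9676 promoters of all tested genes that had one in the table. The GC box was found in 59.9%, 56.7% and 64.8% of these sets. The E-box was found in 9.17%, 12.9% and 10.2%, the cyclic AMP element in 4.28%, 2.38% and 3.19%, the antioxidant element in 17.4%, 15.7% and 14.9% and the ATF4 element in 1.53%, 0.952% and 2.22%.

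Ptgr1, a reductase that inactivates prostaglandins and leukotriene B4 and is a known NRF2 target, was the next by p. Its NCD values were 22.5, 24.8, 16.2 and 21.2 CPM in NCD metformin, against 9.73, 7.97, 7.52 and 9.55 CPM in NCD control. In the HFD libraries it was at 17.8, 23.7, 15.7 and 13.1 CPM in HFD metformin, against 6.97, 7.9, 7.18 and 5.47 CPM in HFD control. Metformin and control libraries did not overlap, and the difference between the diets had an adjusted p of 0.97 (log2 fold change 1.31 ± 0.12 (SE), adjusted p = 2.69e-05).

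Endog, an endonuclease of the mitochondrial intermembrane space, behaved likewise. In the NCD libraries it was at 13.8, 17.9, 11.9 and 14.7 CPM in NCD metformin, against 6.004, 7.84, 7.71 and 5.73 CPM in NCD control. On HFD it stood at 13.4, 15.5, 16.7 and 13.7 CPM in HFD metformin, against 8.93, 7.47, 6.64 and 4.46 CPM in HFD control. No metformin library fell within the range of controls (log2 fold change 1.09 ± 0.12 (SE), adjusted p = 0.00012).

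Tspan8, a tetraspanin of epithelial membranes, ranged over 13.5 to 23.4 CPM (median 17.2) in metformin libraries, against 5.53 to 9.89 CPM (median 9.01) in controls. The groups did not overlap (log2 fold change 1.03 ± 0.14 (SE), adjusted p = 0.000424). Galk2, a kinase of N-acetylgalactosamine, ranged over 34.1 to 49.8 CPM (median 44) in metformin libraries, against 20.5 to 31.5 CPM (median 26.9) in controls, also without overlap (log2 fold change 0.69 ± 0.08 (SE), adjusted p = 0.000223).

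Large shared rises were ranked among genes moving alike with a mean of 1 CPM or more, by the smaller of their within-diet changes. Another 10 of the 15 leading genes by that rank follow. Rragd, a Rag GTPase of the amino acid pathway to mTORC1, ranged over 3.6 to 9.49 CPM (median 6.1) in metformin libraries, against 0.885 to 3.76 CPM (median 2.7) in controls (log2 fold change 1.36 ± 0.25 (SE), adjusted p = 0.0044). Its highest control exceeded the lowest metformin library, HFD metformin 4. Pcolce2, an enhancer of procollagen processing, ranged over 4 to 11.2 CPM (median 5.39) in metformin libraries, against 1.19 to 2.97 CPM (median 2.42) in controls and Angptl2, a secreted angiopoietin-like protein, over 8.23 to 24.7 CPM (median 11.2) in metformin libraries, against 3.61 to 7.93 CPM (median 4.72) in controls, with no overlap in either gene. Their log2 fold changes were 1.44 and 1.29. The uncharacterised Ccdc74a was at a log2 fold change of 1.04 without overlap. Bcl2l14 (BCL2 family) was at a log2 fold change of 1.14, Upb1 (pyrimidine breakdown) at 1.04, Glrb (glycine receptor beta subunit) at 1.3 and Vill (villin-like) at 0.95, each with some overlap. C2 of the complement pathway, at a log2 fold change of 1.02, lost its call without NCD metformin 2 (adjusted p = 0.0516). Ccnb1, cyclin B1, at a log2 fold change of 1.0, lost its call without any one of NCD control 1 and 3, NCD metformin 1, 2 and 4, HFD control 3 and 4, and HFD metformin 3 and 4 (adjusted p 0.0530 to 0.0767).

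**Figure D2:**
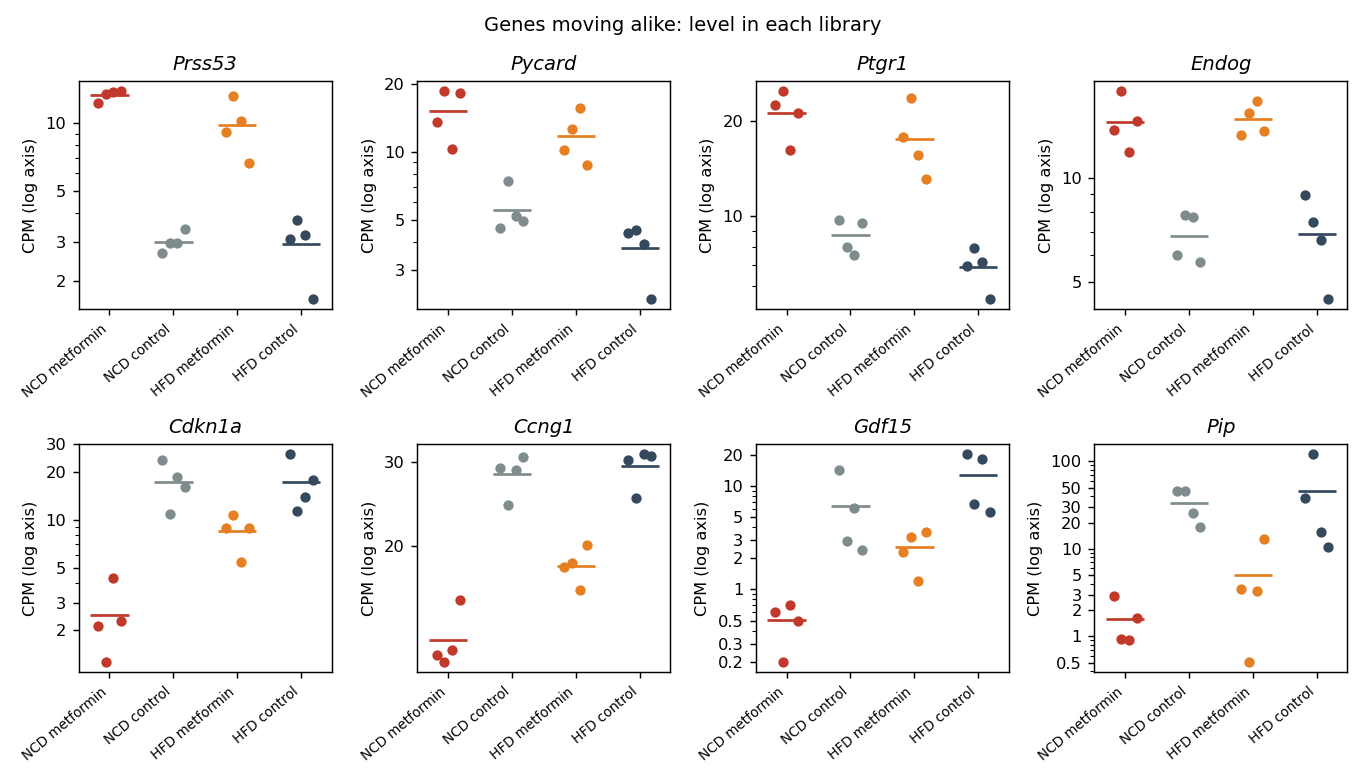
Points give the level of 8 genes in each library in CPM on a log axis, in the order NCD metformin, NCD control, HFD metformin and HFD control, with a line at each group mean. Prss53, Pycard, Ptgr1 and Endog were higher and Ccng1 and Cdkn1a lower in every metformin library than in every control, while Gdf15 and Pip overlapped when the diets were pooled.

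Genes of the mitochondrial genome rose together. Of 13 tested subunits encoded there 11 were called higher and 0 lower, against 5.58% and 4.69% of all genes, and 10 moved alike. Their median log2 fold change was 0.443 with diet as a term, 0.493 on NCD and 0.400 on HFD, beside medians of -0.008, -0.003 and 0.004 over all genes. The count stayed between 9 and 12 in every fit that left out 1 library. Nuclear copies of mitochondrial sequence could share reads with these genes.

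The catalytic cytochrome oxidase subunit mt-Co1 showed it most clearly. On NCD it stood at 10770, 11180, 9849 and 10430 CPM in NCD metformin, against 5932, 6155, 6894 and 5647 CPM in NCD control. Its HFD values were 9584, 9654, 9774 and 9628 CPM in HFD metformin, against 5824, 7754, 6603 and 6684 CPM in HFD control. Every metformin library lay above every control (log2 fold change 0.65 ± 0.07 (SE), adjusted p = 9.94e-05), and the 4 HFD metformin libraries lay close together. Likewise mt-Co3, another oxidase subunit, was at a log2 fold change of 0.59, mt-Atp6 of the ATP synthase at 0.49 and mt-Cytb of complex III at 0.44, all without overlap 8 against 8.

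The share of all counts that came from the mitochondrial genome was 3.51 ± 0.19% in NCD metformin and 2.39 ± 0.23% in NCD control (SD, n = 4 each). It was 2.80 ± 0.19% in HFD metformin and 2.18 ± 0.18% in HFD control. Over both diets the share was 0.874 percentage points higher with metformin, with an exact permutation p = 0.000408 (two-sided, labels permuted within diets), which is the smallest that the 4900 arrangements can give. In bulk tissue, a change in the number of cells of a type and a change in RNA per cell cannot be told apart.

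**Figure D3:**
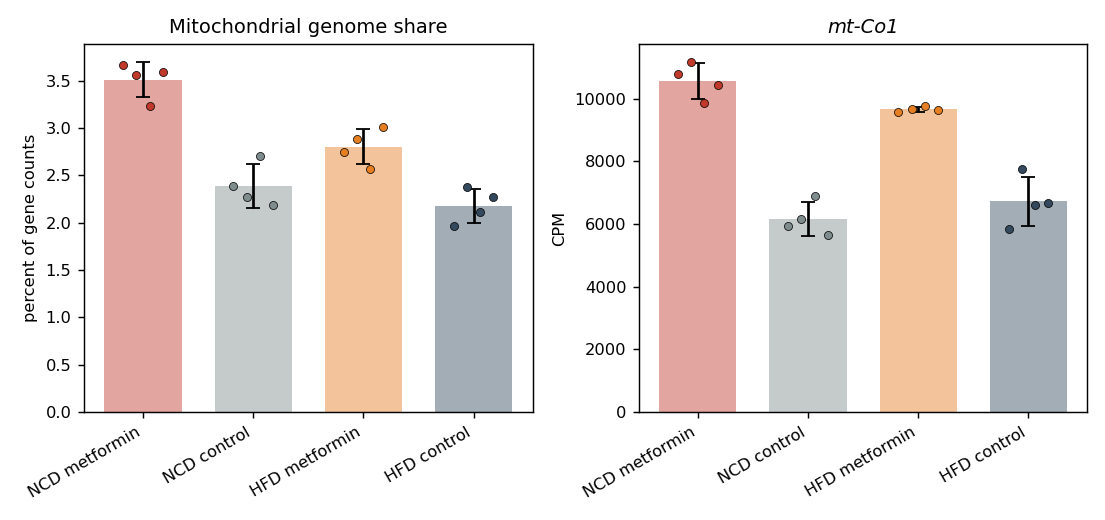
Bars give the mean and SD over 4 libraries of the share of counts from the mitochondrial genome in percent and of mt-Co1 in CPM, with a point per library, in the order NCD metformin, NCD control, HFD metformin and HFD control. In both panels the metformin bars exceed the controls of the same diet, by more on NCD than on HFD.

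Nuclear genes for the respiratory chain moved with them, and their lists are read against 5.58% of all genes higher and 4.69% lower. Of 36 tested complex I subunits 17 were called higher and 0 lower, all 36 had a positive estimate, and the median log2 fold change was 0.344. The count dropped to 11 without any one of NCD control 1, NCD control 4, NCD metformin 2, HFD metformin 3 and HFD control 4. Of 38 tested subunits of complexes II to V, which carry electrons to oxygen and make ATP, 26 were called higher and 0 lower, with a median log2 fold change of 0.383, and 22 moved alike.

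Ndufs7, an iron-sulfur subunit of complex I, ranged over 34.2 to 44.2 CPM (median 39.5) in metformin libraries, against 22.4 to 34.5 CPM (median 27.8) in controls (log2 fold change 0.49 ± 0.07 (SE), adjusted p = 0.00135), and the groups overlapped only through NCD control 3 and HFD metformin 4. Cyc1, cytochrome c1 of complex III, ranged over 80.5 to 113 CPM (median 94.3) in metformin libraries, against 53.4 to 78.9 CPM (median 69.5) in controls without overlap (log2 fold change 0.51 ± 0.07 (SE), adjusted p = 0.00127). The oxidase subunit Cox6a1 ranged over 79.8 to 107 CPM (median 88.1) in metformin libraries, against 52.6 to 67.4 CPM (median 63.8) in controls (log2 fold change 0.53 ± 0.08 (SE), adjusted p = 0.00146). Atp5b, the catalytic beta subunit of ATP synthase, ranged over 471 to 651 CPM (median 536) in metformin libraries, against 345 to 466 CPM (median 402) in controls (log2 fold change 0.44 ± 0.07 (SE), adjusted p = 0.00306). None of the 8 metformin values of these 3 last genes fell within the range of controls.

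Sdhd anchors complex II, which joins the citric acid cycle to the chain. Its NCD values were 26, 29.1, 24.7 and 31.1 CPM in NCD metformin, against 21, 18.6, 21.2 and 19.1 CPM in NCD control. In the HFD libraries it was at 25, 24.3, 30.3 and 24.9 CPM in HFD metformin, against 20.6, 18.2, 18.8 and 18.3 CPM in HFD control. The groups did not overlap (log2 fold change 0.47 ± 0.07 (SE), adjusted p = 0.00128). Its promoter is shown because it holds the motif bound by estrogen-related receptors, nuclear receptors known to drive respiratory chain genes; the match, in capitals, begins at base 37 of chr9:50603800-50604099, minus strand, where base 1 is the annotated start.
Sdhd: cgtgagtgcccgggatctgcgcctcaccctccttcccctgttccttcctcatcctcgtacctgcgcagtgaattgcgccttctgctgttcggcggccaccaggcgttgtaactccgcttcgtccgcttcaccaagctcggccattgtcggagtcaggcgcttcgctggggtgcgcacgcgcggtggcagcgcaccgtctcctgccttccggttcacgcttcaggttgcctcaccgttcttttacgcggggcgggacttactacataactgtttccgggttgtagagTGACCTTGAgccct
This motif (TNAAGGTCA) was found in 8 (2.45%) of the 327 promoters of higher genes moving alike, in 3 (1.43%) of the 210 of lower ones and in 67 (0.692%) of all 9676. Besides Sdhd the 8 genes included Atp5g3, an ATP synthase subunit, and Nhp2, a nucleolar protein of ribosome synthesis. Most of the 8 were not respiratory chain genes, and whether estrogen-related receptors act on any of them was not tested.

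Enzymes of the citric acid cycle and pyruvate dehydrogenase followed. Of 23 tested members 11 were higher and 0 lower, against 5.58% and 4.69% of all genes. The median log2 fold change over these enzymes was 0.274. Idh2, the mitochondrial NADP-dependent isocitrate dehydrogenase, had the lowest p of them. In the NCD libraries it was at 27.1, 32.9, 28.7 and 27.3 CPM in NCD metformin, against 16.9, 15.8, 20.3 and 16.9 CPM in NCD control. On HFD it stood at 25.3, 33.9, 25.2 and 20.1 CPM in HFD metformin, against 16.3, 14.5, 13.5 and 16.2 CPM in HFD control. Within each diet the groups did not overlap, and pooled they met only between NCD control 3 and HFD metformin 4 (log2 fold change 0.76 ± 0.10 (SE), adjusted p = 0.000364). Mdh2, malate dehydrogenase, was at 0.39 and Cs, citrate synthase, at 0.42 on the log2 scale, and both moved alike.

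In the ketone body list 3 of 6 tested enzymes were called higher and 0 lower, against 5.58% and 4.69% of all genes, at a median log2 fold change of 0.531. Bdh1, hydroxybutyrate dehydrogenase, ranged over 39.8 to 65.5 CPM (median 53.1) in metformin libraries, against 23.1 to 43 CPM (median 33.2) in controls (log2 fold change 0.70 ± 0.08 (SE), adjusted p = 0.00012). Oxct1, the enzyme that commits ketone bodies to oxidation, ranged over 227 to 323 CPM (median 276) in metformin libraries, against 159 to 200 CPM (median 174) in controls without overlap (log2 fold change 0.67 ± 0.08 (SE), adjusted p = 0.000364). Acat1, the mitochondrial thiolase, was at a log2 fold change of 0.58. The lowest estimate in the list was -0.584, in a gene that was not called. In glycolysis 6 of 18 tested genes were higher and 0 lower, with Eno1 at a log2 fold change of 0.49 and Gapdh at 0.38, and the count was 3 without NCD control 1 or NCD control 2 and with size scaling only.

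Ribosomal protein genes also leaned upward, by smaller amounts, and are read against 5.58% of all genes higher and 4.69% lower. All 47 tested cytosolic members had a positive estimate and 29 were called, with a median log2 fold change of 0.293, and 20 moved alike. Rpl3 was at a log2 fold change of 0.41 and Rps4x at 0.36. That count depended on single libraries: it was 9 without NCD metformin 2, NCD control 4 or HFD metformin 3, and between 11 and 19 without any one of NCD control 1, 2 and 3, NCD metformin 1 and 4, HFD control 3 and 4, and HFD metformin 4. Of 53 mitochondrial ribosomal protein genes 17 were higher and 0 lower (median log2 fold change 0.291), with Mrpl28 at 0.49 and Mrps35 at 0.46, and the count was 7 without NCD control 1, NCD control 4, NCD metformin 2 or HFD metformin 3 and between 8 and 11 without any one of NCD control 2, NCD metformin 1, 3 and 4, and HFD control 3 and 4.

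Coding length ran along with the direction of change. The files hold coding sequences without UTRs, and the tested genes were split by coding length into 10 groups of about equal size. The median log2 fold change was 0.167 in the group of shortest genes and -0.155 in that of the longest. The trend in these medians appeared on both diets, with 0.176 and -0.230 on NCD and 0.156 and -0.086 on HFD for these groups. Library by library, the rank correlation of relative level with coding length was -0.397 to -0.16 in NCD metformin and 0.06 to 0.23 in NCD control. On HFD the treatments overlapped, at -0.26 to 0.12 in HFD metformin and -0.023 to 0.408 in HFD control. The higher genes moving alike had a median coding length of 897 bases and the lower ones 1810, beside 1369 for all tested genes. Respiratory subunits (median 450 bases for complex I and 418 for complexes II to V) and cytosolic ribosomal proteins (477) are short. With a smooth trend in coding length and GC content removed, an alternative added after the data had been seen, 585 genes moved alike, 444 of them among the 675. The calls in the lists then were 11 in complex I, 17 in complexes II to V and 7 among cytosolic ribosomal proteins, and size scaling alone gave 12 for the last. Mitochondrial ribosomal proteins had 7 calls with the trend removed and 6 with size scaling alone. The part of length in the changes was not tested beyond that.

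**Figure D4:**
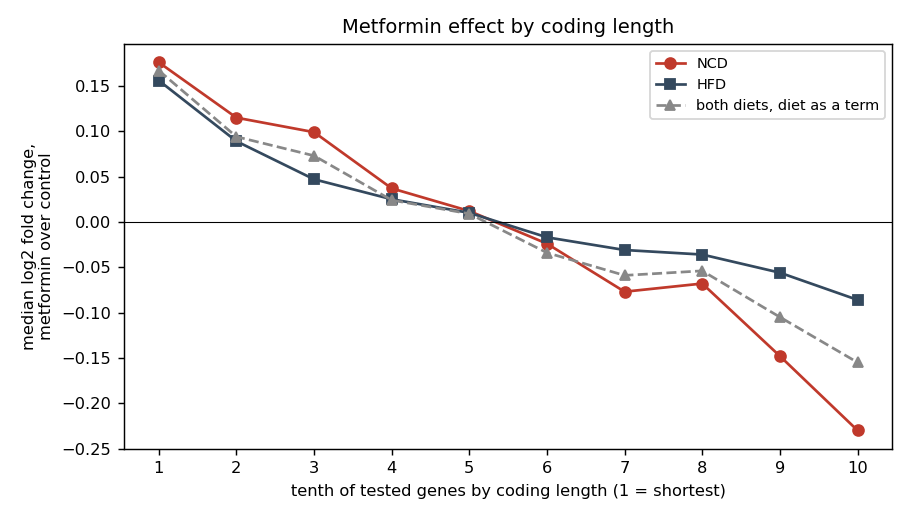
Median log2 fold change of metformin over control for genes in 10 groups of coding length, shortest to longest on the x axis, with diet as a term and within each diet. The medians decline with length on both diets, and the decline is larger on NCD, between 0.176 and -0.230.

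Some targets of p53 fell. Of 29 tested genes on the list 11 were lower and 0 higher, against 4.69% of all genes lower, and their median log2 fold change was -0.514. Within NCD 17 of the 29 were called lower, at a median log2 fold change of -0.899 (6.03% of all genes were called lower there). Within HFD 1 was called lower, at a median of -0.154 (0.0400% of all genes), and 6 of the 29 had a positive estimate. The 7 that moved alike were Ccng1, Cdkn1a, Mdm2, Zmat3, Polk, Tnfrsf10b and Gtse1, and the count stayed between 8 and 13 in every fit that left out 1 library. The list was assembled with earlier results of these data known, so its direction is not independent evidence.

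Ccng1, cyclin G1, had the lowest p of any lower gene. On NCD it stood at 11.9, 11.5, 12.2 and 15.4 CPM in NCD metformin, against 29.1, 24.4, 28.8 and 30.8 CPM in NCD control. Its HFD values were 18.1, 18.4, 16.2 and 20.1 CPM in HFD metformin, against 30.2, 25.2, 31.1 and 30.9 CPM in HFD control. Every metformin library lay below every control (log2 fold change -0.92 ± 0.10 (SE), adjusted p = 9.94e-05). The controls of the diets overlapped, and the 4 metformin libraries on NCD lay below the 4 on HFD.

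Cdkn1a encodes p21, the inhibitor of cyclin-dependent kinases through which p53 arrests the cell cycle. Its NCD values were 2.13, 1.27, 4.32 and 2.3 CPM in NCD metformin, against 24, 10.9, 18.6 and 16.2 CPM in NCD control. In the HFD libraries it was at 8.92, 10.8, 5.41 and 8.9 CPM in HFD metformin, against 26, 11.4, 14 and 18 CPM in HFD control. Again no metformin library reached the lowest control, although NCD control 2 and HFD control 2 lay within 1 CPM of HFD metformin 2 (log2 fold change -1.89 ± 0.33 (SE), adjusted p = 0.00331). The log2 estimates were -2.8 on NCD and -1.03 on HFD. The promoter of Cdkn1a (chr17:29090729-29091028, plus strand) is shown because it was the single one of 210 promoters of lower genes moving alike with a match to the p53 response element, which occurred in 3 of all 9676. The match in capitals begins at base -73 and takes in GGACTAGCTT, GAACATGTCT and the bases between them. The bases directly after it, tgacatgttc, lay outside the match. These counts hold only for the pattern searched, and whether p53 binds here was not tested.
Cdkn1a: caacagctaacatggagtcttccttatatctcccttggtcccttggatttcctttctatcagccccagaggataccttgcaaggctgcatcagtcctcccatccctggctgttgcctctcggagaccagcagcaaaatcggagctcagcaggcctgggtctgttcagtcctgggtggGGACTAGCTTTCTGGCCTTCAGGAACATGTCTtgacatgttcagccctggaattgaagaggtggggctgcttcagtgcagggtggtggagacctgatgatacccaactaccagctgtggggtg
The motif was in 0 of the 327 promoters of higher genes, and sites outside these windows were not searched.

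The other members had smaller or lower-level changes. Zmat3, a zinc finger RNA-binding protein, ranged over 1.24 to 3.5 CPM (median 1.73) in metformin libraries, against 2.63 to 5.25 CPM (median 4.02) in controls (log2 fold change -1.1 ± 0.18 (SE), adjusted p = 0.0022). Polk, a translesion DNA polymerase, ranged over 1.26 to 3.45 CPM (median 1.94) in metformin libraries, against 3.45 to 5.25 CPM (median 3.99) in controls (log2 fold change -0.97 ± 0.17 (SE), adjusted p = 0.0032). Neither separated fully over the pooled diets. Mdm2, the ubiquitin ligase that degrades p53, was at a log2 fold change of -0.55. Tnfrsf10b, the death receptor for TRAIL, was at a log2 fold change of -1.09, and Gtse1, a microtubule-associated regulator of p53, at -1.25. The apoptosis effector Bax was lower at a log2 fold change of -0.51 but had an unadjusted p above 0.05 on HFD, and it lost its call without NCD metformin 2 (adjusted p = 0.0511).

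Gdf15, a stress cytokine that acts on the brainstem to reduce food intake and that metformin is known to raise in blood, was lower here. In the NCD libraries it was at 0.61, 0.201, 0.703 and 0.493 CPM in NCD metformin, against 14.4, 2.93, 6.13 and 2.42 CPM in NCD control. On HFD it stood at 2.31, 3.22, 1.21 and 3.6 CPM in HFD metformin, against 20.2, 6.72, 18.2 and 5.58 CPM in HFD control. Within each diet the groups did not overlap (log2 fold change -2.89 ± 0.44 (SE), adjusted p = 0.00149), and pooled they did. Within the integrated stress response list, 4 of 28 tested genes were lower and 0 higher, against 4.69% and 5.58% of all genes. The lower count was 2 without NCD metformin 2, NCD metformin 4, HFD metformin 2 or HFD metformin 3. Aldh1l2, a mitochondrial folate enzyme on that list, ranged over 1.87 to 6.4 CPM (median 3.93) in metformin libraries, against 4.59 to 12 CPM (median 8.97) in controls (log2 fold change -1.11 ± 0.17 (SE), adjusted p = 0.00146). In the folding list of the endoplasmic reticulum 1 of 21 tested genes was higher and 1 lower, shares near those over all genes. The higher gene was Manf, a secreted chaperone, at a log2 fold change of 0.73. The lower gene was Sel1l, of the degradation complex, at -0.53. That list had 1 to 3 higher and 1 or 2 lower calls in the fits without 1 library.

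Of the lower genes moving alike with a mean of 1 CPM or more, the largest fall was in Pip, prolactin-induced protein, which is secreted by exocrine glands. On NCD it stood at 2.9, 0.936, 0.913 and 1.62 CPM in NCD metformin, against 45.8, 45.9, 25.7 and 17.7 CPM in NCD control. Its HFD values were 3.46, 0.515, 3.31 and 12.9 CPM in HFD metformin, against 37.9, 121, 15.7 and 10.4 CPM in HFD control. The 4 NCD libraries of each kind were far apart, while HFD metformin 4 at 12.9 CPM exceeded HFD control 4 (log2 fold change -3.76 ± 0.60 (SE), adjusted p = 0.00188). Without HFD metformin 4 the log2 fold change of Pip was -4.38.

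Car6, the secreted carbonic anhydrase of saliva and milk, ranged over 0.201 to 1.61 CPM (median 0.574) in metformin libraries, against 0.567 to 5.95 CPM (median 3.43) in controls (log2 fold change -2.4 ± 0.42 (SE), adjusted p = 0.00349). Cyp24a1, the vitamin D 24-hydroxylase, had values of 0.0762, 0, 0.387 and 0.0704 CPM in NCD metformin, against 6.61, 0.26, 14.1 and 0.597 CPM in NCD control. On HFD it had 2.85, 1.16, 0.313 and 0.182 CPM in HFD metformin, against 1.37, 2.18, 18.4 and 2.12 CPM in HFD control. Several of these values are at or under the floor of 3 counts, the log2 fold change of -3.67 is no bound, and the call was lost without HFD control 3 (adjusted p = 0.0774).

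Most of the milk protein list was not called, with 2 of 17 tested genes lower, 0 higher, and with 5 lower and 1 higher without HFD metformin 4. Glycam1, a mucin-like milk protein, had on NCD 2030, 1195, 1492 and 1224 CPM in NCD metformin, against 2527, 3127, 2405 and 2849 CPM in NCD control. On HFD it had 1862, 2029, 3476 and 3246 CPM in HFD metformin, against 6544, 4555, 4586 and 3987 CPM in HFD control. The groups did not overlap within a diet (log2 fold change -0.88 ± 0.15 (SE), adjusted p = 0.00299). Lcn2, lipocalin 2, a siderophore-binding protein that climbs in involution, ranged over 154 to 462 CPM (median 268) in metformin libraries, against 311 to 739 CPM (median 564) in controls (log2 fold change -0.93 ± 0.20 (SE), adjusted p = 0.00944). In the milk fat globule list 1 of 14 genes was higher and 1 lower, against 5.58% and 4.69% of all genes. The mucin Muc1 was higher at a log2 fold change of 0.37, a call absent without NCD control 1, NCD metformin 2 or HFD metformin 3, and Mfge8, which bridges dying cells to phagocytes, was lower at a log2 fold change of -0.39.

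Involution and STAT3 genes, which climb when milk removal stops, had 5 of 26 tested members lower and 0 higher. Over all genes 4.69% were lower and 5.58% higher. Chil1, a chitinase-like lectin, ranged over 0.671 to 2.5 CPM (median 0.946) in metformin libraries, against 1.13 to 6.61 CPM (median 3.42) in controls (log2 fold change -1.47 ± 0.22 (SE), adjusted p = 0.00145) and separated within each diet. Ctsb, the protease cathepsin B, was lower at a log2 fold change of -0.40. Counts for this list were 4 to 7 in the fits without 1 library.

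The remaining large shared falls included Gsta3, a glutathione transferase, over 1.61 to 16.8 CPM (median 6.72) in metformin libraries, against 7.15 to 42.2 CPM (median 22.6) in controls (log2 fold change -1.73 ± 0.30 (SE), adjusted p = 0.00324). Trpm2, a calcium channel opened by oxidative stress, ranged over 0.537 to 0.877 CPM (median 0.772) in metformin libraries, against 1.18 to 1.94 CPM (median 1.6) in controls and separated 8 against 8 (log2 fold change -1.11 ± 0.14 (SE), adjusted p = 0.000326). Clca3a2, of the calcium-activated chloride channel regulators, was at a log2 fold change of -1.41, Cdhr1, a cadherin, at -1.45, Csnk1g1, a casein kinase 1 isoform, at -1.35, Ddias, an anti-apoptotic factor, at -1.55 and Pafah2, a phospholipase, at -1.39. Cilp, a matrix protein, at a log2 fold change of -1.42, lost its call without any one of NCD metformin 2 and 4, HFD metformin 2 and 3, and HFD control 3 (adjusted p 0.0501 to 0.0775). Dglucy, an enzyme of D-glutamate breakdown, ranged over 6.1 to 9.13 CPM (median 8.004) in metformin libraries, against 8.7 to 16.2 CPM (median 12.6) in controls (log2 fold change -0.69 ± 0.09 (SE), adjusted p = 0.000382). Of 22 NRF2 target and antioxidant genes, 4 were higher, among them Ptgr1 and the glutathione transferase Gsta4 (a log2 fold change of 0.65), and 3 lower, among them Gsta3 and the haem oxygenase Hmox1 (-0.67). Over all genes 5.58% were higher and 4.69% lower. Without NCD control 1 the NRF2 and antioxidant list had 1 lower call.

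Lysosomal genes were mixed, with 7 of 25 higher and 2 lower, against 5.58% and 4.69% of all genes. Lamp1, the main lysosomal membrane protein, ranged over 172 to 242 CPM (median 216) in metformin libraries, against 152 to 165 CPM (median 162) in controls (log2 fold change 0.39 ± 0.07 (SE), adjusted p = 0.00299), and Npc2, which carries cholesterol out of the lysosome, was at a log2 fold change of 0.38, both without overlap. The tetraspanin Cd63 was at a log2 fold change of 0.61. Without NCD metformin 2 this list had 1 lower call.

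The lists of AMPK and its upstream kinases, of gluconeogenesis and of metformin and thiamine transporters held 0 or 1 call each. Over all genes 10.3% were called, a share that in lists this short is about 1 gene. An unadjusted p under 0.05 was found in 28.2% of all genes, and DESeq2 called 1861 of 12506. Of 12 tested AMPK subunits and upstream kinases edgeR called 0, 4 had an unadjusted p under 0.05, and DESeq2 called 1. The catalytic subunit Prkaa2 had the lowest adjusted p of them, 0.0743, at -0.48 on the log2 scale. Of 7 gluconeogenesis genes edgeR called 0, 2 had an unadjusted p under 0.05 and DESeq2 called 1. Of 6 transporters 1 was called, the thiamine carrier Slc19a2, and in 12 of the 16 fits that left out 1 library it was not. AMPK itself is regulated by phosphorylation, which RNA does not measure.

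Lists of lipid metabolism are read against 10.3% of all genes called by edgeR. Of all 12506 genes, 28.2% had an unadjusted p under 0.05 and DESeq2 called 1861. In cholesterol synthesis edgeR called 0 of 24 genes (6 at an unadjusted p under 0.05, 2 called by DESeq2), and the median log2 fold changes were 0.436 on NCD and -0.093 on HFD. Msmo1, a sterol oxidase, had log2 fold changes of 1.01 on NCD and -0.01 on HFD. In fatty acid and triglyceride synthesis 1 of 25 was called, and 2 or 3 without any one of NCD control 3, HFD control 1 and 4, and HFD metformin 1 and 2. In fatty acid oxidation 3 of 33 were higher and 1 lower, with Etfa, the electron carrier of beta-oxidation, at a log2 fold change of 0.37. The higher count was 5 without NCD control 3, and the lower count was 3 without HFD control 1 and 0 in 12 of the 16 fits that left out 1 library. The difference between diets in Msmo1 had an adjusted p of 0.369.

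Lists of hormone, growth and matrix genes are read against 5.58% of all genes higher and 4.69% lower. Counts at an unadjusted p under 0.05 are read against 28.2% of all genes, and those of DESeq2 against 1861 of 12506. Of 17 genes for prolactin signalling and hormone receptors edgeR called 0 (4 at an unadjusted p under 0.05, and 2 called by DESeq2, 1 in each direction). Of 27 insulin, PI3K and FOXO genes 3 were lower, with Foxo3, a transcription factor restrained by insulin, at a log2 fold change of -0.83 (-1.32 on NCD and -0.34 on HFD). None of these 3 moved alike, and the count was 1 without HFD metformin 3 or HFD control 4 and 5 or 6 without HFD control 2 or HFD metformin 1. Of 19 clock genes edgeR called 0 (1 at an unadjusted p under 0.05, 0 by DESeq2). In the interferon list 1 of 21 was lower, Irf9, at a log2 fold change of -0.34 with no overlap. Among 28 immediate early genes 3 were lower with a median log2 fold change of -0.641, among them Ier3 at -1.2 and Ier5 at -0.55. With the trend in length and GC content removed Ier5 had an adjusted p of 0.0673. Without NCD metformin 3 the count was 7, and without HFD metformin 1 it was 5. Of 31 collagen and matrix genes 7 were lower and 1 higher, and the lower count was 1 to 4 in 12 of the 16 fits that left out 1 library.

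**Figure D5:**
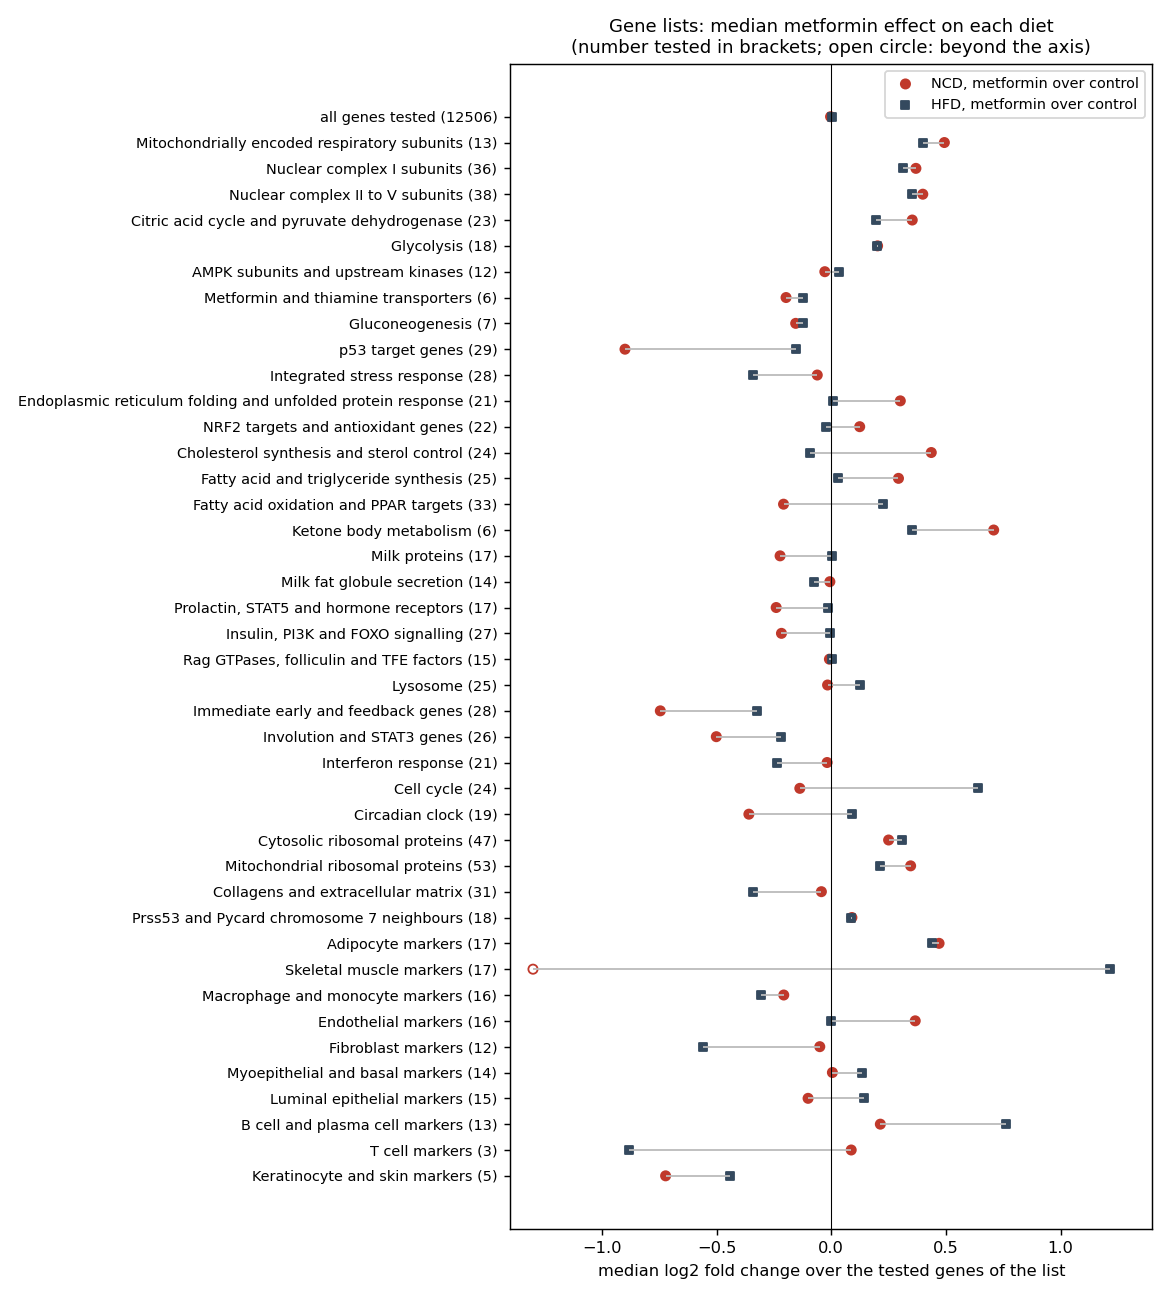
Median log2 fold change of metformin over control in each gene list on the x axis, within NCD (circles) and within HFD (squares), with lists down the page; the open circle for muscle markers on NCD lies beyond the axis. Mitochondrial, ketone, ribosomal, adipocyte and B cell lists are among those right of 0 on both diets. The p53 and macrophage lists are among those left of 0, while the cholesterol list changes side.

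Markers of the cell types a whole gland can hold were read the same way, against 5.58% of all genes higher and 4.69% lower. The share at an unadjusted p under 0.05 was 28.2% over all genes, and DESeq2 called 1861 of 12506. Of 17 adipocyte markers edgeR called 0 (1 at an unadjusted p under 0.05, 0 by DESeq2), with summed levels of 852 to 1650 CPM in NCD metformin, 628 to 1820 in NCD control, 698 to 1400 in HFD metformin and 613 to 1200 in HFD control. Without NCD control 3 the same test called 5 of these adipocyte markers higher. With all 16 libraries 14 of the 17 had a positive estimate, with median log2 fold changes of 0.470 on NCD and 0.437 on HFD. Over the alternative settings 0 to 9 were called higher, and the median with diet as a term ran between 0.259 and 1.131. Muscle markers had 2 of 17 lower at a median log2 fold change of -2.99, which was 0.254 without NCD control 3, and 14 lower without HFD metformin 1. They summed to 2.04 to 37.0 CPM in NCD metformin, 3.37 to 4870 in NCD control, 1.83 to 184 in HFD metformin and 2.66 to 26.7 in HFD control.

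Macrophage markers had 1 of 16 lower and 0 higher, against 4.69% and 5.58% of all genes. DESeq2 called 4 of the 16 lower, against 900 of 12506 genes, and 6 had an unadjusted p under 0.05, against 28.2% of all genes. A positive estimate was found in 1 of the 16 and in 6118 of all 12506. The median log2 fold change of macrophage markers was -0.207 on NCD and -0.305 on HFD. Their sums were 100 to 129 CPM in NCD metformin and 135 to 191 in NCD control, without overlap. On HFD the sums were 127 to 166 CPM in HFD metformin and 132 to 167 in HFD control, with overlap. Fibroblast markers had 4 of 12 lower, and 0 to 2 without any one of 7 libraries, NCD metformin 2 and 4, NCD control 4, HFD metformin 2 and 3, and HFD control 3 and 4. Luminal epithelial markers had 1 of 15 higher and 2 lower, counts that moved to 0 or 2 higher in 10 and to 0 or 1 lower in 10 of the 16 fits that left out 1 library, with sums of 499 to 554 CPM in NCD metformin, 587 to 658 in NCD control, 626 to 721 in HFD metformin and 550 to 694 in HFD control, again apart on NCD and overlapping on HFD. Endothelial markers had 0 of 16 called (1 at an unadjusted p under 0.05, 0 by DESeq2), and B cell markers 0 of 13 (2 at an unadjusted p under 0.05, 0 by DESeq2). Median log2 fold changes were 0.366 on NCD and -0.002 on HFD for endothelial markers, and 0.214 and 0.760 for B cell markers. The part of cell makeup in the changes above was not tested.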

How the data were processed

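RNA of 16 mouse inguinal mammary glands was sequenced from directional libraries, per the labels' protocols. The deposited files hold, per transcript, an estimated count and TPM from Salmon 1.3.0, and the submitters' processing notes also name DESeq2 1.28.1 and GRCm38.p6; the strand option is not given in the sources used here. Transcript lengths were those of coding sequences. Estimated counts were summed to 22196 genes and rounded, with 57452 of 58204 transcripts matched to the annotation and 0.165 to 0.218% of counts unmatched.

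Genes were filtered with filterByExpr by group, scaled with TMM and fitted with edgeR 4.0.16 (quasi-likelihood, R 4.3.3), as diet plus treatment and as 4 group means, with Benjamini-Hochberg adjustment over 12506 genes. The fits were tested on simulated data. DESeq2 1.42.0, other scalings and filters, counts rebuilt from TPM and fits without each library were alternatives. A gene "moved alike" by the 4 conditions given at the start. The genes named were the 15 higher and 15 lower with the largest smaller of their within-diet changes among those moving alike, averaging 1 CPM or more and leaving out clone names, up to 4 members of each of 41 lists with the lowest p, and up to 6 with the lowest p for a difference between diets; others are named where the text says what they are. The members and lists were chosen with earlier results of these data known. CPM and log2 fold changes come from these fits, SD is over the 4 libraries of a group, and SE is that of the fit.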

Additional observations from a re-analysis of the deposited data

Results flagged for a closer look

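A sample was called far from its group when the gap to its nearest neighbour exceeded Dixon's critical value for 4 libraries, 0.829 of the group's range. Chance alone gives such a result in about 1 in 20 groups, and 22 of the 412 groups looked at had one.

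Among genes that were higher with metformin, Tspan8 was low in NCD control 4 (8.32 CPM), C2 high in NCD control 3 (5.08 CPM) and Txn2 high in HFD control 1 (9.31 CPM). Rnase1 was high in NCD metformin 2 (3.11 CPM) and Cd63 in NCD metformin 3 (43.0 CPM). Of the respiratory genes, Cyc1 was low in HFD metformin 1 (80.5 CPM), Cox6a1 high in NCD metformin 2 (107 CPM) and Sdhd high in HFD metformin 3 (30.3 CPM). Eno1 was low in NCD control 1 (172 CPM) and in HFD control 4 (176 CPM).

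Among genes that were lower with metformin, Ccng1 was low in HFD control 2 (25.2 CPM), Zmat3 high in NCD metformin 3 (2.11 CPM), Gtse1 high in HFD control 4 (8.37 CPM) and Car6 low in NCD control 4 (0.567 CPM). Cyp24a1 was high in HFD control 3 (18.4 CPM), Csnk1g1 in HFD metformin 3 (1.16 CPM), Cilp in NCD control 2 (2.70 CPM) and Ypel2 in NCD control 2 (0.553 CPM). The kinase gene Prkaa2, not called, was low in NCD control 1 (5.46 CPM). Nfkbia, the inhibitor of NF-kappa-B, was high in HFD control 2 (64.7 CPM), and Trbc2, a T cell receptor constant gene, was low in HFD metformin 3 (0.0895 CPM); neither was called.

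The genes Mgea5 and Slc25a20 went opposite ways in the diets in every library, a pattern picked without a test, and neither passed the edgeR test of the difference between diets. Mgea5, the enzyme that removes O-GlcNAc from proteins, stood at 42.1, 35.9, 27.6 and 41 CPM in NCD metformin, against 56.9, 65.2, 53.5 and 57.3 CPM in NCD control. In HFD glands it was at 68.5, 65.6, 49.5 and 63.6 CPM in HFD metformin, against 44.7, 49.5, 45 and 44.3 CPM in HFD control, where HFD control 2 (49.5 CPM) was high in its group. All 4 metformin libraries were thus below the controls on NCD and above them on HFD, in HFD metformin 3 by less than 1 CPM. Its log2 fold change on HFD exceeded that on NCD by 1.10 (edgeR adjusted p for the difference 0.18).

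Slc25a20, the carnitine carrier of the mitochondrial inner membrane, stood at 3.32, 3.88, 3.2 and 3.19 CPM in NCD metformin, against 7.04, 5.24, 7.01 and 3.97 CPM in NCD control. In HFD glands it was at 5.77, 6.37, 6.13 and 5.45 CPM in HFD metformin, against 3.7, 5.33, 4.68 and 4.8 CPM in HFD control. Metformin libraries lay below the NCD controls and above the HFD controls. The log2 fold change on HFD exceeded that on NCD by 1.14 (edgeR adjusted p for the difference 0.334).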

How the results depend on the processing

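No paired analysis was possible because the labels give no replicate number shared between groups. Without any one library the count with diet as a term ran between 600 (without NCD metformin 2) and 1599 (without HFD metformin 1), that on NCD between 180 (without NCD metformin 2) and 1461, that on HFD between 3 and 44, the difference between diets between 0 and 1, and the genes moving alike between 449 (without HFD control 4) and 765. For metformin with diet as a term, 692, 789 and 724 genes were called without NCD control 1, 2 and 4, 852 and 731 without HFD control 3 and 4, and 755 without HFD metformin 3. On NCD, 384, 564 and 788 were called without NCD control 1, 2 and 3, and 511 without NCD metformin 3. On HFD, 10, 4, 5 and 44 were called without HFD metformin 1, 2, 3 and 4, and 3 and 6 without HFD control 3 and 4.

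The count on HFD was 7 with size scaling only, 158 with DESeq2, 0 from the 8 HFD libraries alone (edgeR, where the main fit had 1599 genes at an unadjusted p under 0.05) and 2 without NCD control 3, HFD control 4 and HFD metformin 1. That last setting, chosen after seeing the data, gave 845 with diet as a term. The 8 NCD libraries alone gave 810, DESeq2 called 22 differences between diets, and 16 genes moved alike when an adjusted p was asked of each diet. DESeq2 called 1861 genes with diet as a term, and no filter gave 880 by edgeR. Removing the trend in coding length and GC content gave 1005. The milk share ran between -0.677 and 0.0778 points without any one library. Of 92 called genes named here, 77 kept their call under every alternative that gave a value, as did 26 of the 30 largest. Log2 fold changes turned for Trbc2 (0.106 without NCD control 3, HFD control 4 and HFD metformin 1), Mgea5 (0.018) and Vkorc1 (-0.067) with the trend removed, and Nfkbia (between -0.185 and 0.026 without any one library); all of these were uncalled after the change, and the cause was not tested.

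A count of 3 in the shallowest library is 0.347 CPM, so changes in genes near that level could not be resolved there.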

Other observations

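Some genes moving alike lay under a mean of 1 CPM, 40 of the 675, and were left out of the named genes. Rnase1, a secreted ribonuclease, had 1.37, 3.11, 1.3 and 1.48 CPM in NCD metformin, against 0.231, 0.13, 0.317 and 0.328 CPM in NCD control. On HFD it had 1.31, 1.77, 0.94 and 0.327 CPM in HFD metformin, against 0.161, 0.0873, 0.285 and 0.112 CPM in HFD control. The groups did not overlap within a diet (log2 fold change 2.73 ± 0.35 (SE), adjusted p = 0.000382). Ypel2, of the yippee-like family, had 0, 0, 0 and 0 CPM in NCD metformin, against 0, 0.553, 0 and 0 CPM in NCD control. On HFD it had 0, 0, 0 and 0 CPM in HFD metformin, against 0.67, 0.393, 0.696 and 1.9 CPM in HFD control. All 8 metformin libraries were at 0, and counts appeared in NCD control 2 and in all 4 HFD controls. The call of Ypel2 was lost without HFD control 4 (edgeR adjusted p = 0.0510).

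The mitochondrial genes with an adjusted p under 0.05 in each diet also included members outside the lists. Clybl, a citramalyl-CoA lyase, ranged over 9.54 to 14 CPM (median 11.7) in metformin libraries, against 4.91 to 9.4 CPM (median 6.57) in controls (log2 fold change 0.80 ± 0.10 (SE), adjusted p = 0.000393). Slc25a5, the adenine nucleotide carrier, ranged over 134 to 155 CPM (median 148) in metformin libraries, against 90.1 to 118 CPM (median 106) in controls (log2 fold change 0.46 ± 0.06 (SE), adjusted p = 0.000493). Txn2, mitochondrial thioredoxin, ranged over 11.4 to 13.7 CPM (median 12.1) in metformin libraries, against 8.08 to 10.9 CPM (median 9.34) in controls (log2 fold change 0.40 ± 0.07 (SE), adjusted p = 0.00238). In each of these 3 genes every metformin library lay above every control.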
